A study of Mus musculus with 16 samples.

Results

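The genes described here are 36 genes of glycolysis and the hypoxia response, chosen by their symbols: glucose transporters, the enzymes that take glucose to lactate, lactate transporters, oxygen-sensing enzymes, the hypoxia-inducible factors and genes those factors switch on. Of the 36, 33 were measured among 19938 genes, each by the probe set (a group of array probes read as 1 value) with the highest mean over 16 arrays among those with a single gene symbol. The RNA came from mouse cells of the mixed strain C57BL/6 x 129/Ola and the genotype Pitx3GFP/+, in which 1 allele of Pitx3, a transcription factor gene of midbrain dopaminergic neurons, carries green fluorescent protein (GFP). All groups share this allele and, per the design text, a sort for GFP. Cells made from induced pluripotent stem cells (iPSCs) gave 10 arrays, 5 biological replicates differentiated with recombinant human WNT1 and DKK3 (treated) and 5 without them (control). Cells taken straight from the ventral midbrain of embryos (primary) gave 3 technical replicates at embryonic day E13.5 and 3 at E14.5, so each stage is 1 sample. How many iPSC lines, cultures or embryos lie behind the samples is not stated in the labels. The p-values therefore reflect only the spread among the samples at hand. The labels call the iPSC-derived samples biological replicates but do not say whether lines or cultures were repeated.

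Glycolysis splits glucose into pyruvate in the cytosol, and lactate dehydrogenase can turn pyruvate into lactate, which monocarboxylate transporters carry across the plasma membrane. When oxygen is plentiful, prolyl hydroxylases of the Egln family mark the alpha subunits of the hypoxia-inducible factors for destruction. When oxygen is short, the factors persist, bind short DNA motifs with an RCGTG core beside their partner Arnt, and raise the transcription of most glycolytic enzymes and of genes for blood vessel growth, mitophagy and collagen modification. Many dividing and undifferentiated cells run high glycolysis without a lack of oxygen, and neurons rely more on oxidative phosphorylation.

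Levels are log2 values after RMA, a normalization that makes array distributions alike, so they are relative to the rest of each array. The array medians lay between 5.85 and 6.02. The labels call all samples midbrain dopaminergic neurons. The 12 neuron markers had a mean level of 10.05 to 10.35 at E13.5 and 10.12 to 10.25 at E14.5, of 6.10 to 7.86 on control arrays and of 6.05 to 8.15 on treated arrays. All 12 were lower in control iPSC-derived cells (limma), as were 11 of 11 dopaminergic markers, while 10 of 10 mesenchyme, 5 of 5 epithelium and 7 of 8 astrocyte and radial glia markers were higher. The treated and the control array numbered 5 stood apart from the other iPSC-derived arrays, with neuron marker levels of 8.15 and 7.86 against at most 6.53. Counts of genes that passed in control against primary cells are also given without them where they changed. Single genes are given without them where that changed the call. Of 7 pluripotency markers 0 passed in control against primary cells with all arrays and 6 were higher without the arrays numbered 5. Of 7 measured proliferation markers 4 were higher with them and 7 without. Among all genes, 19.3% were higher and 22.5% lower with them, and 22.5% and 23.6% without.

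Most of the measured genes were higher in iPSC-derived than in primary cells. With limma over all genes, at a threshold of 0.05 on the Benjamini-Hochberg adjusted p, 25 of 33 were higher in control than in primary cells, 0 were lower and 8 did not pass. Among all genes, 19.3% were higher and 22.5% lower. The median log2 difference of the 33 genes was 1.79, beside -0.11 over all genes. Without the arrays numbered 5, the count higher was again 25, and 1 gene, Ankrd37, was lower. The shares of all genes were then 22.5% higher and 23.6% lower. On 23 of the 33 genes, every control array lay above every primary array, against 15.9% of all genes. The treated cells gave 25 higher and 0 lower against the same primary samples, with 19.9% and 21.3% among all genes, a median of 1.82 beside -0.088 over all genes, and 22 genes with no overlap of arrays against 16.1%. The treated counts without the arrays numbered 5 were 25 higher and 1 lower, again Ankrd37, beside 22.9% and 22.8% of all genes. The 2 comparisons share the primary samples. Values below are for control against primary cells unless another comparison is named.

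When each array was centred on its median, which moved the median of all genes to -0.30, 23 of the 33 genes were higher and 2 lower in control cells, with 15.3% and 44.3% of all genes. In treated cells the same scaling gave 23 higher and 1 lower, with 15.3% and 44.1% of all genes. The primary group holds only 2 samples. The sources used here do not say whether primary and iPSC-derived RNA were amplified and hybridised together, so a processing batch and the source of the cells cannot be told apart. In these bulk samples, fewer cells of a type and less RNA per cell cannot be told apart either.

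**Figure D1:**
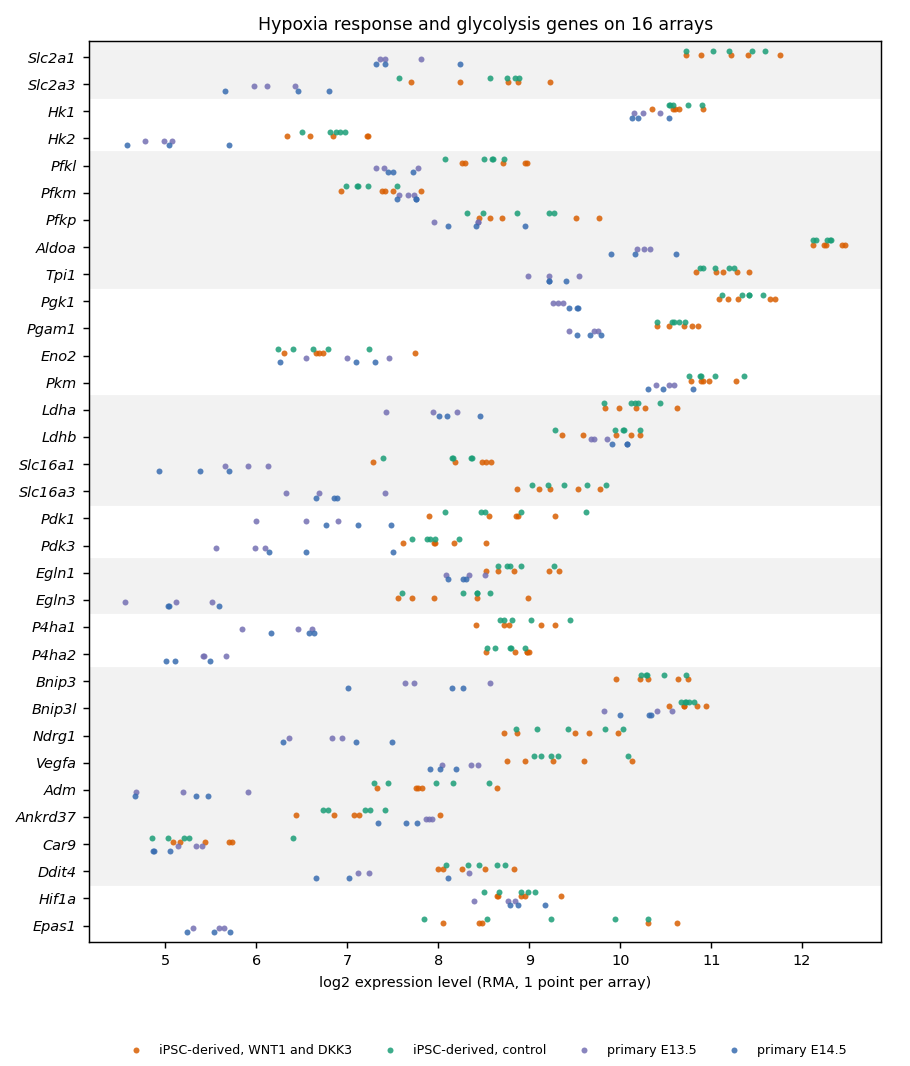
Log2 expression level (horizontal axis) of 33 hypoxia response and glycolysis genes on 16 arrays, 1 point per array, in rows grouped by role with alternating shading. Points of treated and control arrays lie together, and for 23 genes every control point lies to the right of all points of primary cells.

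The sequences upstream of these genes were read from RefSeq (GRCm38.p6) for the 250 bases before each transcript start, because many of the genes are known targets of the hypoxia-inducible factors. The motif ACGTG, searched on both strands, was present for 21 of the 32 genes of the 36 that had a sequence (65.6%), and for 18.5% of all 27025 genes with one. The motif GCGTG was present for 21 of 32 (65.6%) and 30.9% of all genes, and at least 1 of them for 29 of 32 (90.6%) and 41.5%. A gene with several starts counts once if any window matches, and CACGTG, which is also the core bound by the Myc and Clock families, counts as a match on each strand. Base composition was not matched, and a match is a description of letters, not a site in use. ACGTG was present for 17 of the 21 genes with a sequence that were higher in control than in primary cells and for 4 of the 8 that did not pass. For GCGTG the counts were 14 of 21 and 5 of 8, and for either motif 20 of 21 and 7 of 8. The first 4 sequences below belong to genes higher in iPSC-derived cells and the last 2 to genes that did not pass, with both motifs in capitals, 5′ to 3′ on the gene's strand.
Ldha, chr7:46845554-46845803, plus strand: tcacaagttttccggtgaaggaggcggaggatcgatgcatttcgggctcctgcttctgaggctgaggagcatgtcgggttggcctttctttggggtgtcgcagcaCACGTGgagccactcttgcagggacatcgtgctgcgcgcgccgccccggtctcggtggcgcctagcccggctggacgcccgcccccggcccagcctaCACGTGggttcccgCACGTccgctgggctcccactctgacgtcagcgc
P4ha2, chr11:54100674-54100923, plus strand: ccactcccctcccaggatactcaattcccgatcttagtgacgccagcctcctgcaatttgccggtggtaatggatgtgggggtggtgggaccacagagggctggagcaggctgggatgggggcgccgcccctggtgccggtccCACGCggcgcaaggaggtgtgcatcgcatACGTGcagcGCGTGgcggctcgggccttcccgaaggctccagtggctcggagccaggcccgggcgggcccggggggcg
Bnip3, chr7:138909507-138909756, minus strand: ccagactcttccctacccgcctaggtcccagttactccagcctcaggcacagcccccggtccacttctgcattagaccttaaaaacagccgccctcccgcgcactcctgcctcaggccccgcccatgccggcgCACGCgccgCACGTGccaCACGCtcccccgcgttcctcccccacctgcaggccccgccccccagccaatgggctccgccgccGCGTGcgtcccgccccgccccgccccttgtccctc
Slc16a1, chr3:104638414-104638663, plus strand: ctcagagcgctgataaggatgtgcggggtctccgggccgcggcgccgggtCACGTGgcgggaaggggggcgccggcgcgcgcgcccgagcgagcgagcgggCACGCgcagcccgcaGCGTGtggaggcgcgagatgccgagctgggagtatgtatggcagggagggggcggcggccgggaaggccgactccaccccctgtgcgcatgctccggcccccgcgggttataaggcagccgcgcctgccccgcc
Ankrd37, chr8:45999851-46000100, minus strand: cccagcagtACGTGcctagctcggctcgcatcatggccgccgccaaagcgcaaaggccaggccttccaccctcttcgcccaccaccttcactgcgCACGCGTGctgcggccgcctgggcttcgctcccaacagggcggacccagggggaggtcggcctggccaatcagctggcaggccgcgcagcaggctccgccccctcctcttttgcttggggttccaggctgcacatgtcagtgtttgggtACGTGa
Pfkp, chr13:6648772-6649021, minus strand: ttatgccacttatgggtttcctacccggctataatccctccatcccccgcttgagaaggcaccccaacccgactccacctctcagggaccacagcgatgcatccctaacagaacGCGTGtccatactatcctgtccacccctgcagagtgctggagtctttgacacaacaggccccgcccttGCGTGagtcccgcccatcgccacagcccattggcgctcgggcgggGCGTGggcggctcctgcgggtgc
The Ldha sequence shown held 2 copies of CACGTG and a further CACGT. Ldha had 2 windows, and the one with more ACGTG is shown. The other, chr7:46846832-46847081, held 0 ACGTG and 1 GCGTG. The sequence of Bnip3 held 1 CACGTG and 3 matches of GCGTG, and that of Slc16a1 1 CACGTG and 2 of GCGTG. The upstream sequence of P4ha2 held 1 ACGTG and 2 GCGTG. Ankrd37 had 2 matches of each motif and Pfkp 3 of GCGTG, so matches were also present upstream of genes that did not pass.

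Glucose enters cells through transporters of the Slc2a family. Slc2a1 encodes GLUT1, the widespread transporter of dividing cells and barriers, and had the second largest difference of the 33 genes. Its log2 level was 11.44, 11.02, 11.20, 11.59 and 10.72 on control arrays 1 to 5, 11.22, 10.72, 11.40, 11.76 and 10.89 on treated arrays, 7.36, 7.81 and 7.42 at E13.5 and 8.24, 7.41 and 7.32 at E14.5. All 10 iPSC-derived arrays lay above all 6 primary arrays, with more than 2 log2 units between the groups. Slc2a1 was 12.2-fold higher in control than in primary cells (log2 difference 3.60, SE 0.27, limma adjusted p = 7.70e-07). Slc2a3 encodes GLUT3, the high-affinity transporter best known from neurons, and was at 8.75, 8.85, 8.88, 8.56 and 7.57 on control arrays and 8.77, 9.22, 8.88, 8.23 and 7.70 on treated arrays. Its levels were 6.42, 6.12 and 5.97 at E13.5 and 6.80, 5.66 and 6.46 at E14.5, again with no overlap. Slc2a3 was thus higher in the samples with low neuron markers, at a difference of 2.28 (SE 0.40, adjusted p = 6.21e-04).

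Hexokinases trap glucose in the cell by phosphorylating it. Hk2, the inducible form, was at 6.81, 6.91, 6.88, 6.50 and 6.97 on control and 7.23, 6.34, 6.84, 6.59 and 7.21 on treated arrays. In primary cells it was at 4.77, 4.99 and 5.08 and 4.58, 5.04 and 5.70, below the median of each array. Hk2 was higher by 1.79 (SE 0.22, adjusted p = 4.44e-05). Hk1, the form that prevails in brain, did not pass at 0.38 (SE 0.14, adjusted p = 0.0529), with 10.66 ± 0.16 (SD, n = 5) in control cells against 10.28 at E13.5 and 10.29 at E14.5. This Hk1 value is uncertain. Its probe set is listed with 1 accession, and 16 further probe sets carry the symbols of Hk1 and the ribosomal protein gene Rpl17 together. The other Hk1 probe set, listed with several Hk1 transcripts, gave -0.30 (SE 0.19, adjusted p = 0.217), so the probe sets differed in direction and neither passed. The first passed without treated array 2 or 4 (adjusted p = 0.0317 and 0.0384, 0.00850 to 0.818 over 19 alternatives).

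In upper glycolysis, Aldoa, which encodes the aldolase that splits fructose bisphosphate, had levels of 12.32, 12.15, 12.27, 12.11 and 12.30 on control arrays and 12.47, 12.23, 12.26, 12.12 and 12.44 on treated arrays. It was at 10.33, 10.27 and 10.18 at E13.5 and 9.90, 10.61 and 10.16 at E14.5. The 10 iPSC-derived arrays spread over less than 0.5 log2 units and stood clear of the primary ones. Aldoa was 3.97-fold higher (log2 difference 1.99, SE 0.11, adjusted p = 9.14e-08). Tpi1, the triosephosphate isomerase gene, was higher by 1.79 (SE 0.16, adjusted p = 2.47e-06), with arrays between 10.87 and 11.25 in control and between 8.99 and 9.55 in primary cells.

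The 3 phosphofructokinase genes, whose enzyme sets the pace of glycolysis, did not move as 1 group. Pfkl, the liver form, was higher by 0.98 (SE 0.22, adjusted p = 0.00357). Pfkm, the muscle form, was at 6.99, 7.55, 7.12, 7.23 and 7.11 on control arrays, against 7.74, 7.57 and 7.67 at E13.5 and 7.76, 7.75 and 7.55 at E14.5. All control arrays lay below all primary arrays of Pfkm, as for 16.3% of all genes, but the difference of -0.47 (95% interval -0.91 to -0.039, adjusted p = 0.0738) did not pass. It passed in 6 of 19 alternatives (adjusted p from 0.00567 to 0.235), among them leaving out control array 2, at -0.56 (adjusted p = 0.0375), or treated array 1 or 4 (0.0494 and 0.0338). On treated arrays Pfkm was at 7.82, 7.38, 7.50, 6.93 and 7.41 and overlapped the primary ones. Pfkp, the platelet form, which is also expressed in brain, was at 9.22, 8.86, 8.49, 8.31 and 9.27 on control and 9.52, 8.57, 8.70, 8.45 and 9.77 on treated arrays, and at 8.44, 7.95 and 8.43 and 8.42, 8.10 and 8.96 in primary cells. The groups of Pfkp overlapped, and the difference of 0.45 (interval -0.34 to 1.24) did not pass.

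In lower glycolysis, Pgk1 encodes phosphoglycerate kinase, the first step of the pathway that yields ATP. It was at 11.41, 11.42, 11.34, 11.12 and 11.57 on control and 11.71, 11.19, 11.30, 11.08 and 11.64 on treated arrays, and at 9.26, 9.32 and 9.37 and 9.52, 9.43 and 9.54 at E13.5 and E14.5. No primary array came within 1 log2 unit of an iPSC-derived one. Pgk1 was 3.90-fold higher (log2 difference 1.96, SE 0.18, adjusted p = 3.06e-06). Its 3 probe sets, of which 2 held identical values, gave 1.93 to 1.96. Pgam1, a phosphoglycerate mutase gene, was higher by 0.94 (SE 0.13, adjusted p = 1.11e-04).

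Pkm, the pyruvate kinase gene of most tissues other than liver and red cells, was higher by 0.47 (SE 0.16, adjusted p = 0.0361). Under 4 of the 19 alternatives Pkm did not pass (adjusted p from 0.00123 to 0.156), among them leaving out control array 1, with adjusted p = 0.0586, and taking E13.5 or E14.5 as the only primary sample. A second Pkm probe set gave 0.85 (adjusted p = 8.30e-05). Eno2, the gene of neuron-specific enolase, was at 6.63, 6.79, 6.24, 6.40 and 7.24 on control and 6.74, 6.66, 6.69, 6.31 and 7.75 on treated arrays, and at 7.0, 7.46 and 6.55 and 6.26, 7.30 and 7.10 in primary cells. The groups overlapped, and the arrays numbered 5 were the highest of each iPSC-derived group. The difference of -0.29 (interval -1.01 to 0.43, adjusted p = 0.494) did not pass. The partner gene Eno1 and Gpi1 had no single-symbol probe set and were not analysed here. For Gapdh, 25 probe sets carry its symbol together with those of near-identical copies, and their control minus primary differences lay between 0.41 and 0.63, all above 0, without a test.

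Lactate handling held a contrast between the subunits of lactate dehydrogenase. Ldha encodes the subunit that favours lactate production and is a classic hypoxia target. Its levels were 10.16, 10.19, 10.12, 9.82 and 10.44 on control and 10.27, 9.98, 10.18, 9.83 and 10.63 on treated arrays, against 7.94, 8.20 and 7.42 at E13.5 and 8.46, 8.01 and 8.10 at E14.5. Every iPSC-derived array lay above every primary array, and Ldha was 4.36-fold higher in control cells (log2 difference 2.13, SE 0.20, adjusted p = 5.54e-06). Ldhb encodes the subunit that favours the return to pyruvate. It was at 10.03, 10.22, 9.94, 10.04 and 9.29 on control arrays, 10.21, 10.12, 9.96, 9.59 and 9.37 on treated arrays, 9.85, 9.72 and 9.68 at E13.5 and 9.91, 10.08 and 10.07 at E14.5. The groups overlapped, with a difference of 0.017 (interval -0.55 to 0.58), and the arrays numbered 5 were the lowest of their groups. The second Ldhb probe set gave 0.21 and did not pass either.

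Both monocarboxylate transporter genes were higher in iPSC-derived cells. Slc16a1 encodes MCT1, which moves lactate in either direction, and was at 8.15, 8.16, 8.36, 8.37 and 7.39 on control and 8.19, 8.48, 8.52, 8.57 and 7.28 on treated arrays. In primary cells it was at 6.13, 5.91 and 5.66 and 5.38, 4.93 and 5.70, and it was higher in control cells by 2.47 (SE 0.35, adjusted p = 1.16e-04). Here the arrays numbered 5 were the lowest iPSC-derived ones and still exceeded the primary range. Slc16a3 encodes MCT4, the lactate exporter of strongly glycolytic cells. Its levels were 9.63, 9.03, 9.38, 9.21 and 9.84 on control and 9.53, 8.87, 9.23, 9.11 and 9.78 on treated arrays, and 6.69, 6.32 and 7.41 and 6.66, 6.89 and 6.85 in primary cells. Slc16a3 was 6.13-fold higher (log2 difference 2.62, SE 0.24, adjusted p = 4.37e-06), and in contrast to Slc16a1 its arrays numbered 5 were the highest of their groups.

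Pyruvate dehydrogenase kinases block the entry of pyruvate into the mitochondrial citrate cycle. Pdk1, induced by hypoxia, was at 8.51, 8.91, 8.46, 8.07 and 9.63 on control and 8.87, 8.85, 8.56, 7.89 and 9.29 on treated arrays, and at 6.54, 6.90 and 6.00 and 6.77, 7.48 and 7.11 in primary cells. Control array 5 was the highest of all and 1 E14.5 array came closest to the iPSC-derived range. Pdk1 was higher by 1.92 (SE 0.40, adjusted p = 0.00218), and Pdk3, whose arrays lay between 7.71 and 8.23 in control and between 5.56 and 7.50 in primary cells, by 1.63 (SE 0.25, adjusted p = 2.11e-04).

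The oxygen-sensing prolyl hydroxylases differed in size of change. Egln3 encodes PHD3, which is itself induced by the factors it marks for destruction. It was at 8.27, 8.42, 8.42, 7.60 and 8.56 on control and 7.95, 7.56, 8.43, 7.71 and 8.99 on treated arrays, and at 4.56, 5.51 and 5.12 and 5.04, 5.03 and 5.59 in primary cells, where every array lay below its own median level. Egln3 was 8.65-fold higher (log2 difference 3.11, SE 0.34, adjusted p = 1.75e-05). Egln1 encodes PHD2, the main oxygen sensor, and was higher by 0.61 (SE 0.22, adjusted p = 0.0418). Under 7 of the 19 alternatives Egln1 did not pass (adjusted p from 0.00213 to 0.184), among them leaving out control array 2, 3 or 5 or treated array 3, with adjusted p of 0.0664, 0.0548, 0.0650 and 0.0542.

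The collagen prolyl 4-hydroxylases, which stabilise the collagen helix and are hypoxia targets, had some of the clearest differences. P4ha2 was at 8.62, 8.54, 8.80, 8.95 and 8.79 on control and 8.99, 8.52, 8.85, 8.98 and 8.97 on treated arrays. In primary cells it was at 5.41, 5.42 and 5.67 and 5.49, 5.11 and 5.01, below the median of each array. The nearest arrays of the groups were more than 2 log2 units apart, and P4ha2 was 10.5-fold higher in control cells (log2 difference 3.39, SE 0.15, adjusted p = 1.84e-08). P4ha1 was at 8.72, 9.01, 8.81, 8.68 and 9.45 on control arrays against 6.61, 6.46 and 5.84 and 6.57, 6.17 and 6.63 in primary cells, higher by 2.55 (SE 0.24). Mesenchyme markers, among them the collagen genes these enzymes serve, moved the same way: 10 of 10 were higher, with a mean level of 8.97 to 9.88 on control and 5.52 to 5.76 and 5.77 to 5.87 on E13.5 and E14.5 arrays. Dcn, the decorin gene of connective tissue, was higher by 5.68 (adjusted p = 3.27e-08). The part of mesenchymal cells in these differences was not tested.

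Among the hypoxia-induced effectors, Bnip3, a receptor for mitophagy, had levels of 10.48, 10.30, 10.23, 10.29 and 10.72 on control and 10.64, 9.96, 10.22, 10.31 and 10.75 on treated arrays. At E13.5 it was at 8.57, 7.64 and 7.74 and at E14.5 at 8.15, 7.01 and 8.28. The primary arrays of Bnip3 spread by more than 1 log2 unit but all lay below the iPSC-derived ones, and the gene was 5.68-fold higher (log2 difference 2.51, SE 0.20, adjusted p = 1.30e-06). A second Bnip3 probe set gave 2.18. Its relative Bnip3l, also a mitophagy receptor, was higher by 0.49 (SE 0.11, adjusted p = 0.00333). Ndrg1, a stress-response gene, was at 10.03, 8.86, 9.43, 9.84 and 9.08 on control arrays against 6.94, 6.83 and 6.36 and 7.49, 6.30 and 7.09 in primary cells, higher by 2.61 (SE 0.36, adjusted p = 9.94e-05).

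Vegfa, the main growth factor for blood vessels, was at 9.24, 9.13, 9.32, 9.06 and 10.08 on control and 9.60, 8.75, 9.26, 8.96 and 10.12 on treated arrays, and at 8.36, 8.44 and 8.04 and 8.19, 8.02 and 7.91 in primary cells. The groups did not overlap, and the arrays numbered 5 were the highest. Vegfa was higher by 1.21 (SE 0.34, adjusted p = 0.0132), a call lost with E14.5 as the only primary sample (adjusted p = 0.0556) or E13.5 (0.106, with 1.48e-04 to 0.106 over all 19 alternatives). Adm encodes adrenomedullin, a vasodilator peptide, and was at 8.16, 7.45, 7.97, 7.29 and 8.55 on control arrays against 4.68, 5.91 and 5.19 and 4.67, 5.33 and 5.46 in primary cells. It was 6.40-fold higher (log2 difference 2.68, SE 0.35, adjusted p = 6.25e-05). Ddit4, an inhibitor of mTOR signalling, was higher by 1.04 (SE 0.23, adjusted p = 0.00298), although array 3 of each stage, at 8.33 and 8.10, lay within the control range. With E13.5 as the only primary sample its adjusted p was 0.0505 (from 9.64e-04 to 0.0505 over 19 alternatives).

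A pair of effectors did not pass. Ankrd37, an ankyrin repeat gene known as a direct target of the factors, was at 7.20, 6.79, 7.25, 6.73 and 7.42 on control and 7.12, 6.44, 7.07, 6.86 and 8.01 on treated arrays, and at 7.87, 7.93 and 7.90 and 7.33, 7.76 and 7.64 in primary cells. Its difference was -0.66 (interval -1.38 to 0.051, adjusted p = 0.120). Treated array 5 alone exceeded the primary range. Without the arrays numbered 5 Ankrd37 was lower in control cells, at -0.75 (adjusted p = 0.0158), and without treated array 5 alone the adjusted p was 0.0322. In treated against primary cells it was then lower too, at -0.87 (limma adjusted p = 0.00712). Ankrd37 passed as lower in 5 of 19 alternatives in control and 4 of 19 in treated cells. Among them were arrays centred on their median, with adjusted p of 0.0373 and 0.0381. Car9, the gene of a membrane carbonic anhydrase that is a standard marker of hypoxia, was at 5.26, 5.21, 5.03, 4.85 and 6.40 on control and 5.73, 5.17, 5.09, 5.43 and 5.69 on treated arrays, and at 5.13, 5.34 and 5.41 and 5.05, 4.87 and 4.86 in primary cells. It lay below the array median on 9 of 10 iPSC-derived and 6 of 6 primary arrays, and only control array 5 exceeded it. The files hold no detection calls, so whether Car9 was expressed on the other arrays cannot be said, and the difference of 0.24 (interval -0.50 to 0.98) did not pass.

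The factors themselves differed from each other. Hif1a encodes HIF-1 alpha, whose activity is set mainly by protein stability. It was at 8.67, 8.98, 8.91, 9.06 and 8.50 on control and 8.65, 8.95, 8.91, 9.35 and 8.66 on treated arrays, and at 8.76, 8.84 and 8.40 and 8.79, 9.17 and 8.87 in primary cells. The groups overlapped throughout, and the difference was 0.020 (interval -0.41 to 0.45, adjusted p = 0.942). Epas1 encodes HIF-2 alpha, found in endothelium, some epithelia and neural crest derivatives. Its levels were 9.24, 8.54, 9.94, 10.30 and 7.84 on control arrays, 8.48, 8.44, 10.31, 10.63 and 8.05 on treated arrays, 5.30, 5.64 and 5.59 at E13.5 and 5.24, 5.71 and 5.54 at E14.5. Every iPSC-derived array lay above every primary array, and the difference was the largest of the 33 genes at 3.67 (SE 0.75, adjusted p = 0.00197, 2.46e-06 to 0.0223 over 19 alternatives).

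Epas1 also had the widest spread within the iPSC-derived groups, with an SD of 1.01 in control and 1.19 in treated cells (n = 5 each). The arrays numbered 3 and 4 were the highest and those numbered 5 the lowest in both groups. The 5 epithelium markers had mean levels of 10.15, 9.02, 9.61, 10.32 and 8.58 on control arrays 1 to 5 and 9.34, 9.29, 9.82, 10.35 and 8.35 on treated arrays, and between 5.89 and 6.09 on primary arrays. The 6 endothelium markers had 6.89, 6.53, 6.80, 6.98 and 6.16 and 6.60, 6.52, 6.89, 7.11 and 6.21, and between 5.41 and 5.90 on primary arrays. The part of epithelial or endothelial cells in the Epas1 levels was not tested.

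**Figure D2:**
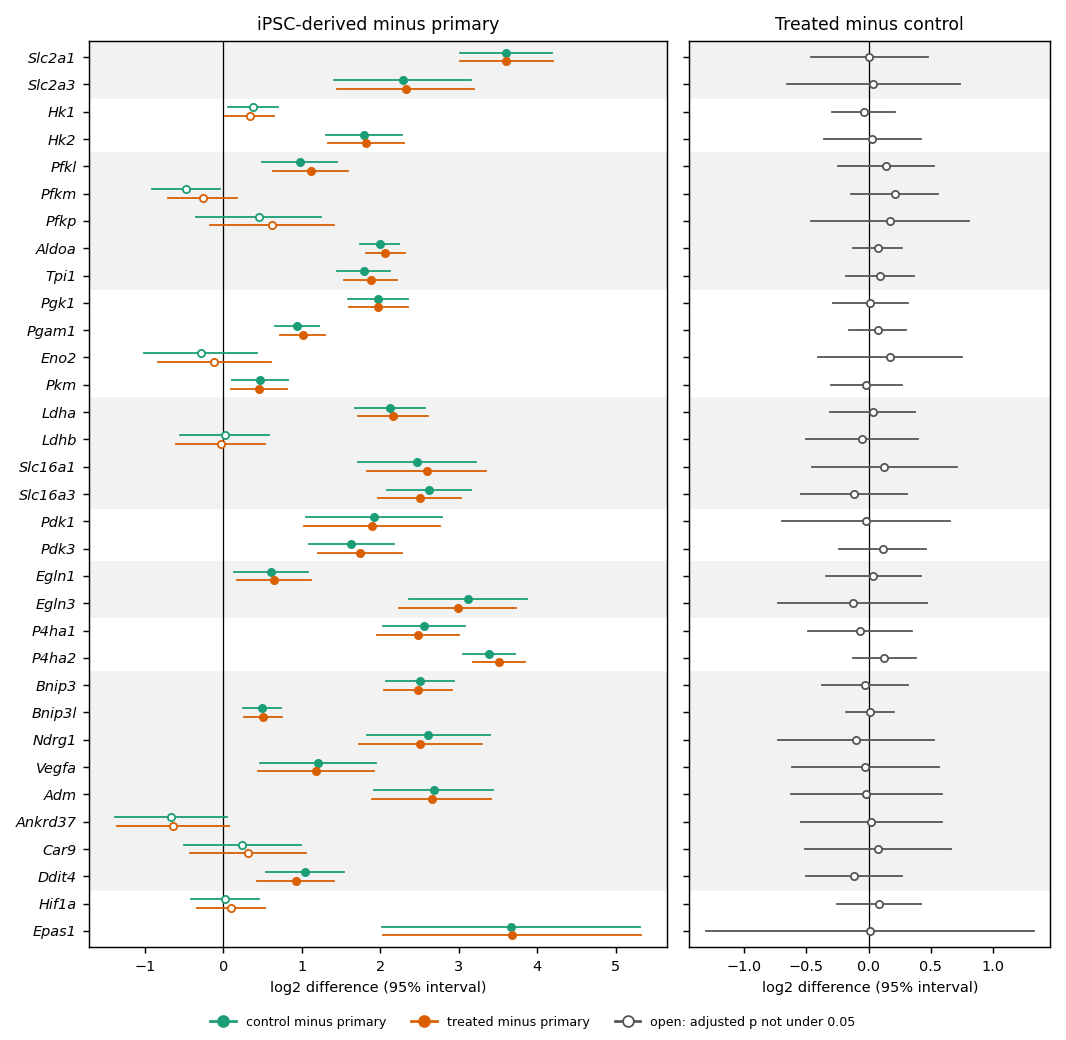
Log2 differences with 95% intervals (limma) of 33 genes, at left control (green) and treated (orange) cells minus primary cells and at right treated minus control cells; filled points have an adjusted p under 0.05. The largest differences from primary cells are those of Epas1, Slc2a1 and P4ha2, and in the comparison of treated with control cells every interval spans 0.

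Genes of the same pathways outside the 36 gave a less uniform picture. Of 33 measured of 37 further genes of glucose and pyruvate metabolism, 11 were higher in control than in primary cells, 4 were lower and 18 did not pass, with a median of 0.19, beside 19.3% higher and 22.5% lower among all genes. Without the arrays numbered 5, 13 were higher and 5 lower, beside 22.5% and 23.6% of all genes. The largest differences were those of Aldoc, the aldolase gene of brain and astrocytes, at 2.81 (SE 0.34), Pdk4 at 2.70 and Pdk2 at 1.73, both pyruvate dehydrogenase kinase genes. The lower genes included Slc16a7, which encodes the neuronal monocarboxylate transporter MCT2, at -1.67 (SE 0.24), Bpgm, the bisphosphoglycerate mutase gene, at -1.15 and Pfkfb4, a phosphofructokinase-2 gene, at -0.67. The Pfkfb4 call was lost with E14.5 as the only primary sample. With arrays centred on their medians, 9 were higher and 10 lower, beside 15.3% and 44.3% of all genes, which this scaling moves alike. In treated cells 12 were higher and 4 lower, with 19.9% and 21.3% of all genes.

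Of 34 measured of 36 further genes of hypoxia signalling and its targets, 19 were higher in control cells, 4 lower and 11 did not pass (median 0.87). The shares of all genes were again 19.3% and 22.5%. Without the arrays numbered 5 the counts were 21 and 5, beside 22.5% and 23.6% of all genes. In treated cells 20 were higher and 3 lower, beside 19.9% and 21.3%. Lox, the lysyl oxidase gene that cross-links collagen, had the largest difference at 4.51 (SE 0.71, adjusted p = 2.71e-04). Ndufa4l2, which lowers mitochondrial complex I activity in hypoxia, was higher by 3.61 and Bhlhe40, a transcriptional repressor gene, by 3.09. Arnt2, the neuronal relative of the factors' partner Arnt, was lower, at -1.58 (SE 0.28), as were Kdm4b, a histone demethylase gene, at -0.74 and Egln2, the third prolyl hydroxylase of the family, at -0.57. Egln2 thus changed in the direction opposite to Egln1 and Egln3.

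Treated and control cells were compared to ask whether WNT1 and DKK3 changed these genes. With limma, 0 of 33 genes passed in either direction, and 0% of all genes did. At an unadjusted p under 0.05 there were again 0 of 33, against 1.5% of all genes. The median log2 difference was 0.022, beside 0.017 over all genes. For 32 of 33 genes (97.0%) the 95% interval lay within a 2-fold change either way, as for 97.1% of all genes. Single-gene differences ran from -0.13 for Egln3 (interval -0.73 to 0.47) to 0.21 for Pfkm (-0.14 to 0.56). Slc2a1 differed by 0.0034 (-0.47 to 0.47), Ldha by 0.031 (-0.31 to 0.37), Pdk1 by -0.023 (-0.70 to 0.65) and Vegfa by -0.027 (-0.62 to 0.56). The tightest interval was that of Bnip3l, at 0.012 (-0.18 to 0.20). Epas1 was the exception to the 2-fold bound, at 0.0082 with an interval from -1.31 to 1.33, which reaches beyond 2-fold in both directions. These intervals take treated and control arrays as unpaired, because the labels state no pairing. Epas1 was highest on arrays 3 and 4 and lowest on array 5 in both groups, and such a shared spread widens an unpaired interval. Intervals with the replicate number as a block are not given here.

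All 5 genes of upper glycolysis lay above 0, between 0.073 for Aldoa and 0.21 for Pfkm, none past the threshold. Of the 33 genes, 21 lay at or above 0 and 12 below, and of all 19938 genes 11293 and 8645. Hypoxia-induced effectors lay on either side of 0, 3 above and 5 below.

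The stages of the primary cells were set side by side without a test, because each is 1 sample. No gene of the 33 had a log2 difference of 1 or more with separate arrays, a rule met by 0.176% of all genes upward and 0.0652% downward. Technical arrays of 28 genes overlapped between stages. Those that did not were Pgk1, Ldhb and Pdk3, higher at E14.5, and Ankrd37 and Car9, lower, while 4.75% and 4.93% of all genes were separate in these directions. Pdk3, a kinase gene of pyruvate dehydrogenase, had the largest stage difference, from 5.56, 6.10 and 5.99 at E13.5 to 6.55, 7.50 and 6.14 at E14.5, or 0.85 between the means. Without the third E14.5 array the difference of Pdk3 was 1.14 and met the rule. Pdk1, with 6.54, 6.90 and 6.00 and 6.77, 7.48 and 7.11, had 0.64 with overlapping arrays, and Slc16a1 had -0.56. Ldhb was higher by 0.27 and Pgk1 by 0.18, while Ankrd37 was at -0.32 and Car9 at -0.37.

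Within the iPSC-derived groups, the arrays numbered 5 were set against the other 4. For 14 of 33 genes, array 5 exceeded the other 4 arrays of its group in both treated and control cells, and for 5 it lay below them in both, against 2899 and 2967 of all 19938 genes. These positions are a description without a test. The 14 genes above were Pfkl, Pfkp, Eno2, Pkm, Ldha, Slc16a3, Pdk1, Egln1, Egln3, P4ha1, Bnip3, Vegfa, Adm and Ankrd37. Against the mean of the other 4 arrays, Eno2 stood higher by 1.15 in treated and 0.73 in control cells, Vegfa by 0.98 and 0.89 and Pdk1 by 0.74 and 1.14. The 5 genes below were Slc2a3, Ldhb, Slc16a1, Pdk3 and Epas1. The same gap was -1.41 and -1.66 for Epas1, -1.17 and -0.87 for Slc16a1, and -1.08 and -1.20 for Slc2a3.

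In each group, array 5 had the highest mean levels of neuron, dopaminergic, mesenchyme and muscle markers and the lowest of pluripotency, proliferation, epithelium, endothelium and astrocyte and radial glia markers. The 10 mesenchyme markers averaged 9.25, 9.67, 9.37, 8.97 and 9.88 on control and 9.26, 9.42, 9.18, 8.86 and 9.76 on treated arrays 1 to 5, and the 8 muscle markers 6.08, 5.90, 6.00, 6.01 and 6.30 and 6.01, 5.91, 6.11, 6.08 and 6.93, with 5.56 to 5.95 on primary arrays. The 7 pluripotency markers averaged 7.94, 8.44, 7.86, 7.36 and 5.43 on control and 7.61, 8.96, 7.72, 7.43 and 5.23 on treated arrays 1 to 5, and between 5.18 and 5.79 on primary arrays. The 7 measured proliferation markers averaged 8.14, 8.39, 8.38, 8.0 and 6.38 and 7.89, 9.05, 8.18, 8.08 and 6.39, and between 6.07 and 6.24 on primary arrays. Nanog, a core pluripotency gene, was at 2.29 in control against primary cells (limma adjusted p = 0.0502) and at 2.81 without the arrays numbered 5 (adjusted p = 1.71e-04), and it passed in 7 of 19 alternatives (1.71e-04 to 0.191). The 33 genes averaged 9.14, 9.07, 9.11, 8.97 and 9.21 on control and 9.24, 8.93, 9.16, 9.01 and 9.30 on treated arrays 1 to 5, and 7.51 to 7.69 on primary arrays. The part of any of these cell types in the levels of the 33 genes was not tested.

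**Figure D3:**
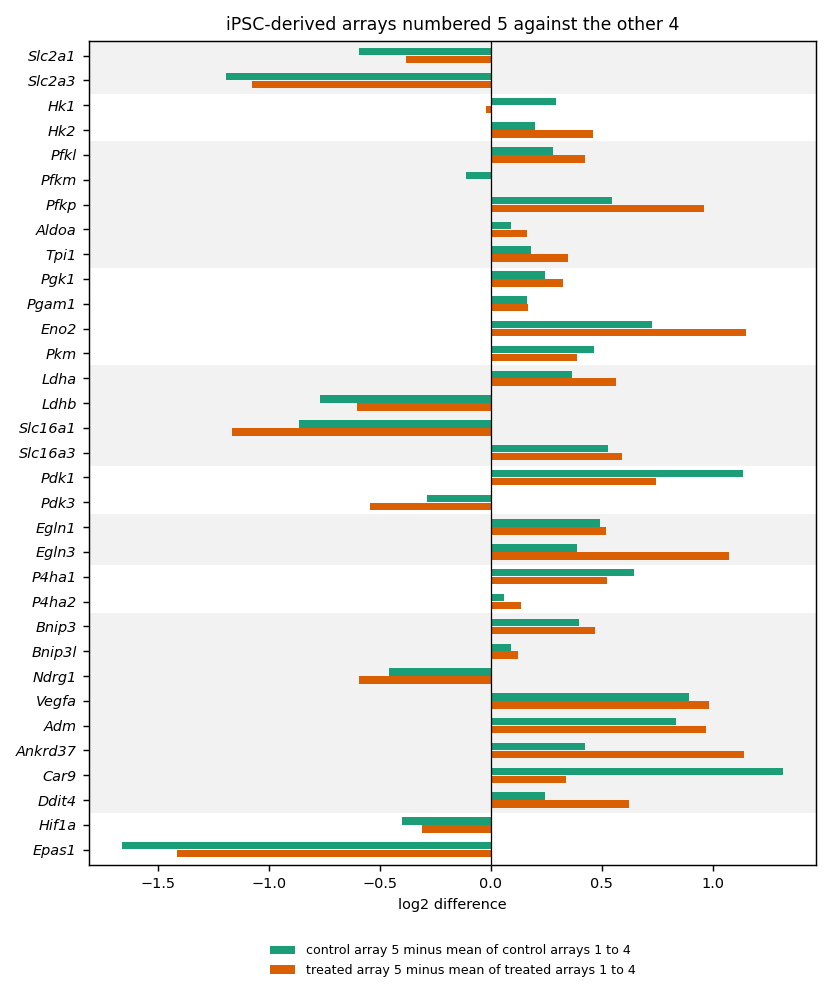
Log2 difference between the array numbered 5 and the mean of arrays 1 to 4 of the same group, for 33 genes in control (green) and treated (orange) iPSC-derived cells; each bar is 1 array against 4, without a test. Bars of Eno2, Pdk1, Vegfa and Adm point to higher and those of Epas1, Slc2a3 and Slc16a1 to lower levels in both groups.

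**Figure D4:**
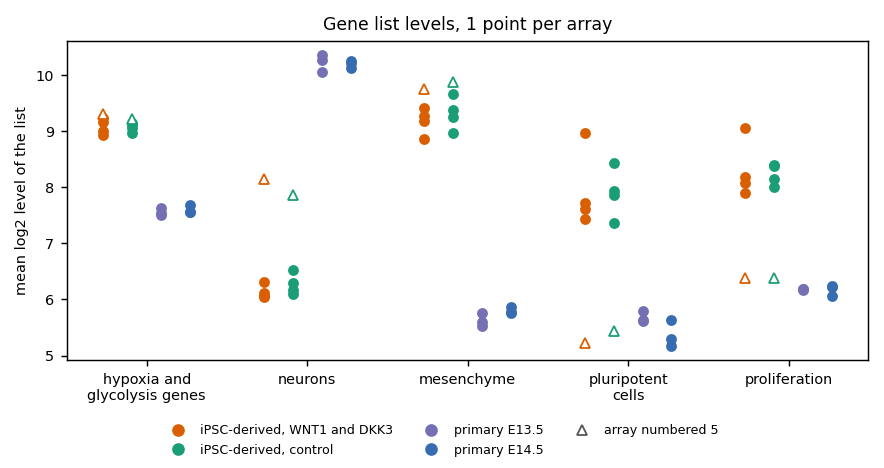
Mean log2 level of the 33 hypoxia response and glycolysis genes and of 4 marker lists, 1 point per array, with arrays numbered 5 as open triangles. The 33 genes separate all iPSC-derived from all primary arrays, as do the neuron, mesenchyme and proliferation lists, while the pluripotency list overlaps. The neuron, pluripotency and proliferation lists also set the arrays numbered 5 apart from the other iPSC-derived arrays.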

How the data were processed

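GFP-sorted iPSC-derived cells (5 treated, 5 control) and primary cells (3 technical arrays a stage) were measured on mouse Affymetrix arrays. Per the labels' protocols, RNA was isolated with RNeasy columns and amplified with the Ovation PicoSL WTA kit. The authors deposited log2 values of 35556 probe sets, made with RMA in Affymetrix Expression Console 1.2, per the submitters' processing notes. Of these, 21789 had 1 gene symbol, 1621 several and 12146 were not listed, and 999 of the 19938 genes had several probe sets. Symbols were updated through RefSeq (GRCm38.p6).

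Differences were fitted by lmFit and eBayes of limma 3.58.1 under R 4.3.3 (two-sided, Benjamini-Hochberg over all genes), treated against control on 10 arrays (8 residual degrees of freedom) and both against primary on 12 samples in 3 groups (9), with technical arrays averaged. In the latter fit the 3 groups share 1 estimate of spread, because primary holds only 1 sample a stage. Errors and p-values against primary cells therefore rest mainly on the spread among iPSC-derived arrays. Intervals are at 95%, without adjustment. Stages had no test: a difference counted at 1 or more on the log2 scale with no overlap of technical arrays. The fits were run on simulated data with independent noise of the control arrays' spread on all arrays. Those data held no batch and no shared replicate effect, so they check the code and not the p-values. Every one of the 36 genes could be named, and of each further pathway list the 3 genes with the largest differences in each direction. The genes and lists were chosen with earlier results of these data known. Alternatives changed the filter, probe set rule, scaling, spread model, samples and primary stage, and the number of arrays limits the precision.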

Additional observations from a re-analysis of the deposited data

Results flagged for a closer look

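In the 5 control arrays, 4 of the measured genes had 1 array far from the rest, at a gap over the group's range above Dixon's 95% critical value of 0.71. Each time it was the array numbered 5. Slc2a3, the neuronal glucose transporter gene, was at 7.57 there, with the nearest other array at 8.56, and Slc16a1, the MCT1 gene, at 7.39 with the nearest at 8.15. Vegfa, the blood vessel growth factor gene, was at 10.1 with the nearest at 9.32, and Car9, the carbonic anhydrase gene, at 6.4 with the nearest at 5.26. Among 66 groups tested, chance flags about 1 in 20, and genes of the same array are not independent. No treated array was set apart by the same measure.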

How the results depend on the processing

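Over alternatives with both stages, 23 to 26 of the 33 genes were higher than primary in control and 23 to 27 in treated cells. With 1 array left out the counts were 24 to 26 and 23 to 26. The share of all genes higher moved too, from 15.3% with centred arrays in both comparisons. Without the 25% lowest genes it reached 25.8% in control and 26.5% in treated cells. With 1 stage as the only primary sample, counts and shares fell below these ranges. No gene past the threshold changed direction, and 26 of 33 kept their side of the threshold under every alternative in each comparison. Counts lower, 0 in the reported fits, were 2 in control and 1 in treated cells with arrays centred on their median. The shares of all genes were 44.3% and 44.1%. Without both arrays numbered 5 the counts were 1 and 1, beside 23.6% and 22.8% of all genes. With all 16 arrays and the sample as a random block they were 2 and 1, beside 29.9% and 28.1%. With only the 2 groups compared, 2 were lower in control cells, beside 20.6% of all genes. Leaving out 1 array gave 0 to 1 in either comparison, beside 18.7% to 23.5% of all genes. For E14.5 against E13.5 the count of 0 became 1 (Pdk3) at a difference of 0.5 and ranged from 0 to 1 without 1 technical array. Of the further glycolysis genes, 2 to 10 were lower in control cells over the alternatives, which were added after the data were seen.

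The pair of genes lower with centred arrays were Pfkm and Ankrd37, and centring shifts whole arrays, which moved the median of all genes from -0.11 to -0.30 in control against primary cells. The cause of the other moves was not tested. In treated against primary cells, the Pkm call (adjusted p = 0.0429 with limma) was lost in 10 of 19 alternatives and is the least stable of the 25.

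Replicate numbers shared by treated and control arrays were not stated to pair them. Same-numbered arrays deviated together with correlations of 0.045, 0.52, 0.44, 0.72 and 0.80, and 3 of 5 correlated best with their own number. With the replicate number as a block, 0 of the 33 genes and 1 of all genes passed between treated and control cells, and 834 genes had an unadjusted p under 0.05, against 300 without it. The files give no detection calls, so low levels such as those of Car9 have no stated background.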

Other observations

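Markers of further cell types that a sorted midbrain or culture sample could hold were also compared between control and primary cells with limma. Of 6 endothelium markers, 2 were higher and 1 lower. Of 6 measured markers of red blood cell precursors, 0 were higher and 3 lower. Microglia had 1 of 6 markers higher and 2 lower, and skeletal and cardiac muscle had 1 of 8 higher and 0 lower. Among all genes, 19.3% were higher and 22.5% lower, or 22.5% and 23.6% without the arrays numbered 5. Without the arrays numbered 5, the counts higher and lower were 3 and 1 for endothelium, 0 and 5 for red cell precursors, 1 and 3 for microglia and 3 and 0 for muscle, and 8 of 8 in place of 7 astrocyte and radial glia markers were higher. Th, the gene of the enzyme that limits dopamine synthesis, was at -4.90 in control minus primary cells, and Tubb3, the neuronal tubulin gene, at -3.91. The part of these cell types in the levels of the hypoxia response and glycolysis genes was not tested.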
